A study of Danio rerio with 28 samples.

Results

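The genes described here encode the proteins of the large ribosomal subunit, and they were taken by name, as every gene of the table whose name begins with rpl followed by a digit or by p and a digit. The rule gave 44 of the 1017 listed genes, and no measured value entered it. The table holds single zebrafish cells labelled as germ cells, sorted into plates from embryos at 3.5, 8 and 24 hours post fertilization (hpf) and from fish at 2 weeks. Cells called mutant below came from embryos of maternal-zygotic (mz) tdrd6a-/- mothers and the controls, called wild type, from embryos of wild-type mothers. The design text names a transgene, kop::egfp-f-nos1-3'UTR, a green fluorescent reporter for germ cells, and can be read as giving it to both kinds of mother or to the wild type alone. The 2 week cells are labelled wild type, and tdrd6a itself was not analysed here. The Tudor protein encoded by tdrd6a sits in germ plasm, the maternal granules that specify germ cells.

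The large subunit joins amino acids into protein. Its core is ribosomal RNA, and its proteins brace that RNA, line the tunnel through which the new chain leaves, and form a stalk that recruits the elongation factors. Vertebrate ribosomal protein mRNAs share a tract of pyrimidines at the 5′ end through which their translation is held back or released together, and an early fish embryo lives on ribosomes and mRNAs laid down in the egg until its own genome takes over.

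Groups were genotype by stage, with plates as the replicates. The 3.5 hpf stage had 5 plates (205 cells) of wild type and 5 plates (264 cells) of mutant. At 8 hpf 4 wild-type plates held 101 cells and 4 mutant plates held 112, and at 24 hpf 5 wild-type plates held 196 cells and 3 mutant plates held 156. A single wild-type plate held 76 cells of 2 weeks and entered no test. Values are transcripts, the whole number by which each deposited value exceeds its floor of 0.1. The protocol reads 3′ ends, so levels of genes were compared without a correction for length. A level is the mean number of transcripts per cell of a plate, group values are means over plates with SD, and a share is a percentage of the transcripts of the listed genes only. The share of large subunit transcripts of a plate is the mean of the shares of its cells. The labels do not tie plates to clutches, and the p-values therefore reflect plate-to-plate spread, which may be technical. RNA content and the number of cells of each kind cannot be told apart in a plate mean.

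Plate 1 of the 8 hpf mutant stood apart before any gene was tested. Its cells carried 8.42 epidermal, 4.02 globin, 3.63 muscle and 2.38 hatching gland marker transcripts per cell, summed over the 9, 3, 8 and 3 listed genes of each marker list. The other 8 hpf mutant plates carried no hatching gland transcript, and the 8 hpf wild-type plates carried neither globin nor hatching gland transcripts and at most 0.667 muscle and 4.19 epidermal transcripts per cell. Many counts and named values that rest on the 8 hpf mutant are therefore also given without plate 1. Where no such second value is given, plate 1 is included. Summed transcripts per plate ran from 1027 to 32018, and 3 plates held fewer than 10 cells. Levels were not scaled to cell totals, and these rose with stage. Median cell totals averaged 372, 459 and 536 over the wild-type plates of 3.5, 8 and 24 hpf. Over the mutant plates they averaged 340, 472 and 567, and 451 at 8 hpf without plate 1. Germ cell markers were detected on every plate. At 3.5 hpf their sum was mostly h1m, a maternal linker histone gene, at between 2.57 and 14.5 transcripts per cell, and the other 9 markers summed to between 0.75 and 1.80. Those 9 summed to between 1.38 and 11.98 at 8 hpf and between 0.593 and 8.4 at 24 hpf, lowest on mutant plate 2. At 2 weeks germvasa stood at 2.32 and piwil1 at 2.13 transcripts per cell, and germnanos3 at 0.0132.

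Large subunit genes took a small part of the transcripts of early cells and a large part at 24 hpf. In the 3.5 hpf wild type the 5 plates held shares of 2.80, 3.83, 3.72, 3.98 and 3.98%, a mean of 3.66 ± 0.496% (SD, n = 5). The 4 wild-type plates of 8 hpf held 6.09, 3.52, 4.14 and 3.56%, a mean of 4.33 ± 1.21% (SD, n = 4), which overlapped the earlier stage. At 24 hpf the 5 wild-type plates held 15.3, 15.9, 17.1, 16.3 and 13.8%, a mean of 15.7 ± 1.26% (SD, n = 5). Every 24 hpf plate thus lay above every 8 hpf plate, and the ratio of the group means was 3.62.

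**Figure D1:**
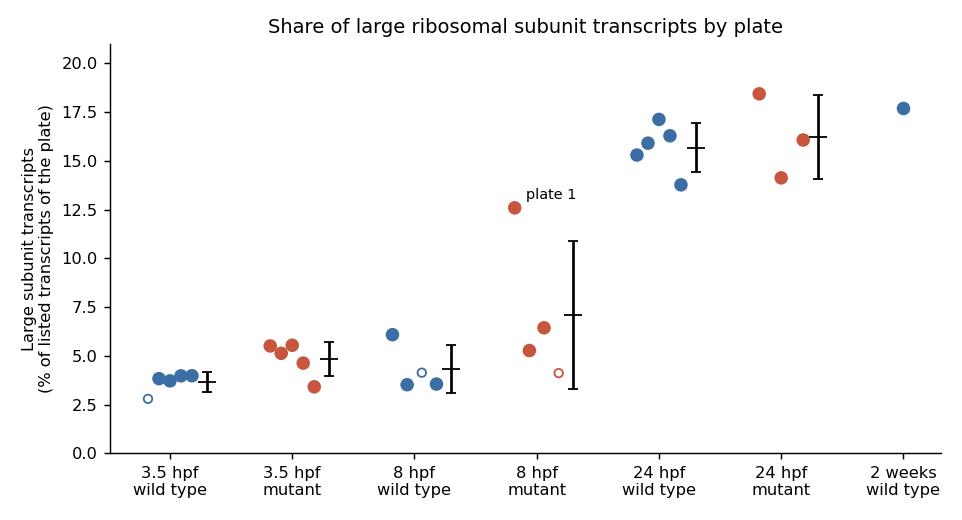
Share of the listed transcripts of a cell that came from the 44 large subunit genes, as the mean over the cells of each plate (y axis, percent). Plates are set by stage and genotype (x axis), blue for wild type and red for mutant. Open small points are plates of fewer than 10 cells, and bars give the mean and SD over plates. The 24 hpf plates lie between 13.8 and 18.4%, and at 8 hpf only mutant plate 1, at 12.6%, comes near them.

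The mutant plates rose at the same step. The mutant's 3.5 hpf plates held 5.51, 5.13, 5.55, 4.63 and 3.42% (4.85 ± 0.881%, SD, n = 5). The 8 hpf plates held 12.6, 5.28, 6.44 and 4.12%, with a mean of 7.11 ± 3.78% (SD, n = 4) that plate 1 set, since the other 3 plates averaged 5.28 ± 1.16%. At 24 hpf the plates held 18.4, 14.1 and 16.1% (16.2 ± 2.16%, SD, n = 3). The rise from 8 to 24 hpf again separated all plates. The ratio of means was 2.28 with plate 1 included. Without that plate the 8 hpf mean of 5.28% stood against the same 16.2% at 24 hpf, a larger rise.

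Single cells showed much of the separation of the plate means, but with overlap between the stages. A share above 10% was reached by 0 of 205 wild-type and 7 of 264 mutant cells at 3.5 hpf. At 8 hpf it was reached by 3 of 101 wild-type cells and 42 of 112 mutant cells, or 2 of 64 without plate 1. At 24 hpf 171 of 196 wild-type and 138 of 156 mutant cells exceeded it. Cells are not replicates, so these counts describe the cells and were not tested.

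Large and small subunit transcripts kept a ratio near 1 while their amount rose. The ratio of large to small subunit transcripts was 1.17 ± 0.111 in the 3.5 hpf wild type (SD, n = 5), 1.09 ± 0.104 at 8 hpf (SD, n = 4) and 1.17 ± 0.0445 at 24 hpf (SD, n = 5). In the mutant it was 1.15 ± 0.211 (SD, n = 5), 1.21 ± 0.169 (SD, n = 4), or 1.25 ± 0.184 without plate 1, and 1.18 ± 0.0162 (SD, n = 3). At 2 weeks the single plate gave 1.3, above the range of 1.12 to 1.23 of the 24 hpf wild type.

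Between 8 and 24 hpf nearly every large subunit gene rose in the wild type. By limma on log2 plate means with Benjamini-Hochberg adjustment over 910 tested genes, 42 of 44 members were higher at 24 hpf and 0 lower, where 24.1% of all tested genes were higher and 6.92% lower. The median log2 difference was 1.67 over the members and 0.12 over all tested genes. The plates of the stages did not overlap for 39 members, against 25.7% of all tested genes. With only the 24 hpf cells that held germnanos3, 38 members were higher. Epidermal markers on these 24 hpf plates summed to between 2.03 and 5.68 transcripts per cell and muscle markers to between 0.60 and 6.34, against 0.0476 to 0.667 for muscle at 8 hpf, and beyond that count their part in the rise was not tested.

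The largest rises fell to structural proteins of several regions of the subunit. The gene rpl27, whose human counterpart is mutated in Diamond-Blackfan anaemia, stood at 0.619, 0.327, 0.167 and 0.680 transcripts per cell on the 8 hpf wild-type plates and at 4.12, 4, 3.16, 3.37 and 3.07 at 24 hpf. Its log2 difference was 2.61 (SE 0.41, limma adjusted p = 3.30e-05), and no plate of one stage reached the other. A second gene of that anaemia, rpl35a, went from 0.594 ± 0.405 (SD, n = 4) to 3.58 ± 0.521 transcripts per cell (SD, n = 5), a log2 difference of 2.36. The other members of large change were rpl36a (2.28), rpl37 (2.15), rpl35 (2.09), whose protein sits at the tunnel exit, and rpl18 (2.05). All log2 differences are on the scale of log2(transcripts per cell + 0.2), where the change of low genes is understated.

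In the mutant the same step raised 36 of 44 members and lowered 0, where 15.9% of tested genes were higher and 2.64% lower. The median was 1.34 over members and 0.12 over all genes, and 17 members had no overlap between stages, where 16.8% of all genes had none. Without 8 hpf mutant plate 1 the count was 41 and the median 1.73. The count was 26 with only the 24 hpf cells that held germnanos3. It was 11 when 24 hpf mutant plate 1, the plate with the highest share, was left out instead, and 1 when those 2 groups alone were fitted. With cells rescaled to the same total it was 23. The largest change was that of rpl35a, at 2.12, 0.694, 0.731 and 0 transcripts per cell on the 8 hpf plates and 5.33, 3.89 and 3.75 at 24 hpf (log2 difference 2.50, SE 0.48, limma adjusted p = 0.000693). Without 8 hpf plate 1 its log2 difference was 3.02. It was followed by rpl27 (2.12, or 2.63 without that plate), rpl7 (1.99, or 2.43), rpl5b (1.93, or 2.28), rpl37 (1.82, or 2.21) and rpl10a (1.78, or 2.02), a component of the mobile L1 stalk through which spent tRNAs leave. On 8 hpf plate 4, of 2 cells, all of these but rpl10a stood at 0, as did rpl35a, which enlarges their differences. With 1 plate left out at a time the lowest values were 1.84 for rpl35a, 1.43 for rpl27 and 1.43 for rpl7. They were 1.47 for rpl5b, 1.14 for rpl37 and 1.65 for rpl10a, so this order is not firm. No member differed between genotypes in the size of this step by limma (0 of 44 at adjusted p, 1 at an unadjusted p below 0.05), where 0% of all tested genes did. The count was also 0 with any 1 plate left out, for this step and for the earlier one.

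Few members missed the threshold at this step. In the wild type they were rpl31 and rpl7l1. The level of rpl31 was 0.286, 0.0816, 0.667 and 0.24 transcripts per cell at 8 hpf and 0.854, 0.6, 1, 1.14 and 0.349 at 24 hpf, a log2 difference of 0.98 with overlap (limma adjusted p = 0.0615). The level of rpl7l1 was 0.333, 0.163, 0.167 and 0.40 transcripts per cell at 8 hpf and 0.146, 0.15, 0.579, 0.20 and 0.163 at 24 hpf. The ranges of rpl7l1 overlapped fully (log2 difference -0.10, SE 0.29, limma adjusted p = 0.85). In the mutant it stood at 0.147 ± 0.145 transcripts per cell at 8 hpf (SD, n = 4) and 0.218 ± 0.110 at 24 hpf (SD, n = 3). This gene encodes a relative of rpl7 which in human cells is found in nucleolar precursors of the subunit. In all it gave 26 transcripts in the 101 wild-type cells of 8 hpf and 56 in the 196 of 24 hpf, so its values rest on small numbers.

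From 3.5 to 8 hpf most members leaned upward, but few passed the threshold. At a limma adjusted p below 0.05, 10 of 44 wild-type members were higher and 1 lower at 8 hpf, against 11.6% and 23.1% of all tested genes. The median log2 difference of the 44 was 0.42, against -0.02 over all tested genes. Of these differences 33 were positive, where 47.7% of all tested genes were. In the mutant 12 were higher and 1 lower, against 11.8% and 20.1% of all genes, with a median of 0.57. There 38 differences were positive, where 50.8% of all tested genes were. The plates of 3.5 and 8 hpf did not overlap for 10 of 44 members in the wild type, against 23.3% of all tested genes. In the mutant they did not overlap for 7 of 44, against 24.8%. Lack of overlap at this step was thus no more common among members than among all tested genes. With cells rescaled to the same total the mutant had 5 members higher and 3 lower. Without plate 1 of the 8 hpf mutant 4 were higher and 2 lower and the median was 0.13. In that fit 29 differences were positive, where 40.1% of all tested genes were. With only the 8 hpf wild-type cells that held germnanos3, 5 members were higher and 0 lower, and 28 differences were positive. The wild-type count fell to 4 without 8 hpf plate 1 or plate 3 and to 5 without 3.5 hpf plate 1, and the mutant count rose to 26 without 8 hpf plate 4, which held 2 cells, and fell to 6 without 3.5 hpf plate 5. Wild-type plate 1 of 8 hpf, with the highest share, held 0.19 germnanos3 transcripts per cell where the other 3 held between 1.17 and 4.14.

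**Figure D2:**
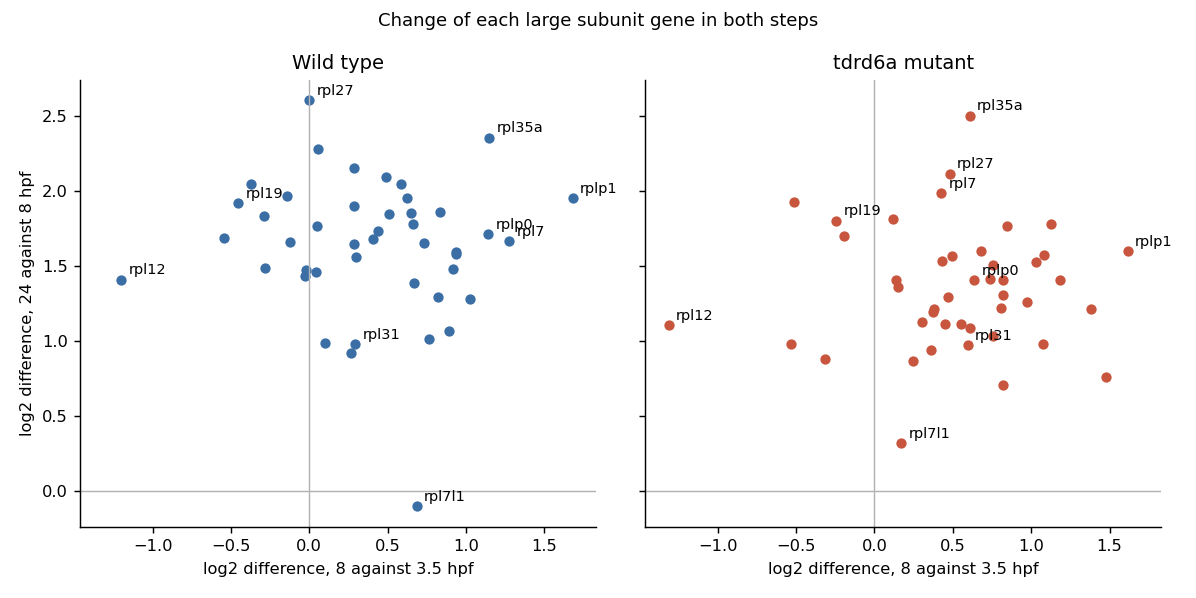
Each point is 1 of the 44 large subunit genes, with its log2 difference from 3.5 to 8 hpf on the x axis and from 8 to 24 hpf on the y axis, wild type on the left and mutant on the right. The cloud lies above the horizontal line, so the later step was shared, while rplp1 lies far right, rpl12 far left and rpl7l1 lowest in both genotypes.

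The largest early rise in the wild type was that of rplp1, a gene of the stalk. The stalk is built from Rplp0, which anchors it to ribosomal RNA, and pairs of Rplp1 and Rplp2, which draw in the elongation factors. In the wild type rplp1 stood at 0.25, 0.194, 0.265, 0.197 and 0 transcripts per cell on the 3.5 hpf plates and at 2.05, 0.714, 1.33 and 0.40 at 8 hpf. Every plate of 8 hpf exceeded every plate of 3.5 hpf (log2 difference 1.68, SE 0.39, limma adjusted p = 0.00106), and the call held under all 19 alternatives, with adjusted p between 0.000284 and 0.0409. In the mutant rplp1 went from 0.554, 0.463, 0.348, 0.213 and 0.25 to 3.60, 1.56, 1.54 and 0.50 transcripts per cell. Only the plate of 2 cells, at 0.50, overlapped the earlier stage (1.61, SE 0.39, limma adjusted p = 0.0016), and the call held under all 21 alternatives. Without plate 1 the log2 difference was 1.22. Further rises in the wild type were those of rplp0 (log2 difference 1.14, adjusted p = 0.0268) and rplp2 (1.03, adjusted p = 0.0237), both by limma and neither kept under every alternative. The rplp0 call was lost under 5 of 19 alternatives, among them the fits without 8 hpf plate 1, 3.5 hpf plate 1 or 3.5 hpf plate 5 and with only the germnanos3-positive 8 hpf cells. The rplp2 call was lost under 6 of 19, among them the fits without 8 hpf plate 3 or 3.5 hpf plate 1 and with only the germnanos3-positive 8 hpf cells. It rests on 18 wild-type transcripts at 3.5 hpf and 27 at 8 hpf. The other copy of that gene, rplp2l, gave 91 and 71. Its plates overlapped, at 0.25 to 0.514 transcripts per cell at 3.5 hpf and 0.408 to 1.48 at 8 hpf. By 24 hpf rplp1 was the highest member in the wild type, at 4.53 ± 1.5 transcripts per cell (SD, n = 5).

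The gene rpl12 did the opposite of rplp1. Its protein lies at the base of the stalk, beside Rplp0. It was the highest of the 44 members at 3.5 hpf, with 0.25, 0.639, 0.796, 0.985 and 1.07 transcripts per cell on the wild-type plates and 0.865, 1.18, 0.935, 1.13 and 0.375 on the mutant plates. At 8 hpf the wild-type plates held 0.286, 0.388, 0 and 0.20, and the mutant plates 0.50, 0.167, 0.423 and 0. In each genotype 1 plate of 3.5 hpf, of 4 cells in the wild type and 16 in mutant plates, fell within the 8 hpf range. The fall was 1.2 on the log2 scale in the wild type (SE 0.37, limma adjusted p = 0.0126), and 1.31 in the mutant (SE 0.37, limma adjusted p = 0.00634). The mutant call held under all 21 alternatives, and without plate 1 the fall was 1.55. The wild-type call held under 17 of 19 and was lost without 8 hpf plate 3, a plate of 6 cells, and with only the 8 hpf cells that held germnanos3, where the fall was 0.75 with adjusted p = 0.20. In transcripts the wild-type fall was from 166 in 205 cells to 30 in 101. By 24 hpf the level of rpl12 had risen to 0.840 ± 0.124 (SD, n = 5) in the wild type (log2 difference 1.41, SE 0.37, limma adjusted p = 0.00363), a rise that was 0.96 with adjusted p = 0.0875 when only 8 hpf cells with germnanos3 were used. As a share of listed transcripts it ran from 0.124 to 0.170% on these plates, against 0.067 to 0.292% at 3.5 hpf. In the mutant its share ran from 0.0658 to 0.161% at 24 hpf, against 0.104 to 0.364% at 3.5 hpf.

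Outside the stalk the early rises differed in which genes passed. In the wild type rpl7 stood at 0, 0.167, 0.184, 0.182 and 0.0714 transcripts per cell at 3.5 hpf and at 0.524, 0.367, 0.833 and 0.56 at 8 hpf. Its plates did not overlap (log2 difference 1.28, SE 0.38, limma adjusted p = 0.00942), and the call held under all 19 alternatives. In the mutant rpl7 differed by 0.43 with adjusted p = 0.405 by limma, and the test of the difference between the genotypes gave an adjusted p of 0.986. The largest mutant rise outside the stalk was that of rpl8, whose protein lies near the catalytic centre, at 0.311, 0.299, 0.348, 0.41 and 0.0625 transcripts per cell at 3.5 hpf and 1.62, 0.639, 0.5 and 2.5 at 8 hpf. The stages of rpl8 did not overlap (log2 difference 1.48, limma adjusted p = 0.00305), and without plate 1 the difference was 1.32. The highest of these values, 2.5, is that of the plate of 2 cells, and the call was lost once plate 1 and all plates under 10 cells were left out together (adjusted p = 0.0881). In the wild type rpl8 differed by 0.66 (limma adjusted p = 0.194), and the difference between the genotypes in this step did not pass (limma adjusted p = 0.986). The gene rpl36 passed in both, with differences of 0.94 in the wild type and 1.38 in mutant plates, or 1.02 without plate 1. The mutant call of rpl36 was lost without plate 1 and the small plates together (adjusted p = 0.0759), and its plate of 2 cells stood at 1 against 0.389 and 0.346 on plates 2 and 3. The wild-type call of rpl36 was lost without 8 hpf plate 1 or plate 3, without 3.5 hpf plate 5 and with only germnanos3-positive 8 hpf cells.

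To find members that left the common course, each plate's median log2 level over the 44 genes was subtracted and the fit repeated. For the wild-type step from 3.5 to 8 hpf this called 4 members higher (rplp1, rpl7, rpl35a, rplp0) and 2 lower (rpl12, and rpl19, which forms a bridge to the small subunit), where 3.96% and 24.1% of all genes were called. The departure of rplp1 was 1.31 and that of rpl12 was -1.57 on the log2 scale. In the mutant 3 were higher (rplp1, rpl36, rpl36a) and 2 lower (rpl12, rpl5b), against 3.85% and 18.6% of all genes, with departures of 1.33 for rplp1 and -1.60 for rpl12. Without plate 1 of the 8 hpf mutant 7 members were higher and 1, rpl12, was lower. Under 15 alternatives that kept the median member as the reference, rplp1 and rpl12 were called every time in both genotypes. Each other departure was lost under at least 4 of them. These 15 did not include voom, weighting by cells or only germnanos3-positive 8 hpf cells. With only those cells the wild-type fall of rpl12 in level was not called.

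For the step from 8 to 24 hpf the wild type had 2 departures upward (rpl27, rpl35a) and 4 downward (rpl7l1, rpl17, rpl31, rpl30). Of all genes 0.33% were called higher and 81.8% lower. These percentages, like those of the earlier step, depend on the reference and are no background for members. Here the median log2 difference was 1.67 over members and 0.12 over all genes. With so many genes called, the adjustment was slight. For wild-type rpl17 the limma p was 0.0193 unadjusted and 0.0246 adjusted. The departure of rpl35a was lost under 10 of 15 alternatives, any 1 of the 24 hpf plates left out among them, and that of rpl27 under 2. The mutant had 1 upward (rpl35a) and 2 downward (rpl7l1, rpl32). Of all genes 0.11% were called higher and 79.3% lower there, which depends on the reference in the same way. Of 13 alternatives 6 ended the rpl32 departure and 3 that of rpl35a, leaving out 24 hpf mutant plate 1 or plate 2 among them. The departure of rpl7l1 was -1.83 in the wild type (SE 0.39, limma adjusted p = 9.32e-05), kept under all 15 alternatives, and -1.34 in the mutant (limma adjusted p = 0.00736), kept under 12 of 13. Without 8 hpf mutant plate 1 there were 1 upward and 10 downward departures in the mutant. Departures of rpl17, whose protein reaches into the exit tunnel, rpl31, at the tunnel exit, and rpl30 were -0.80, -0.75 and -0.71, and none was kept under every alternative.

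**Figure D3:**
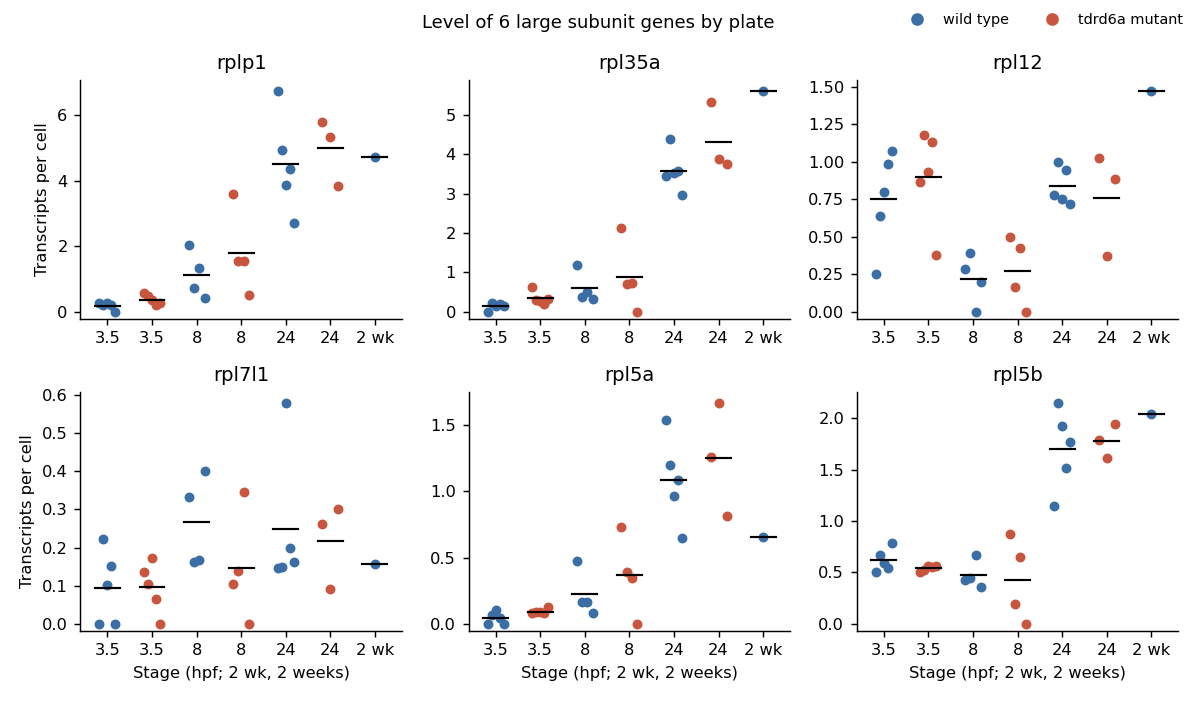
Transcripts per cell (y axis, a scale of its own in each panel) of 6 large subunit genes on each plate, by stage (x axis), blue for wild type and red for mutant, with black lines at group means. Group means of rplp1 and rpl35a climb at each stage, rpl12 dips at 8 hpf, rpl7l1 stays below 0.6, and rpl5a climbs from 3.5 hpf while rpl5b climbs after 8 hpf.

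The order of the members changed more before 8 hpf than after it in the wild type. The mutant steps were not compared in this way. Across the 44 genes the Spearman correlation of mean levels was 0.496 between the 3.5 and 8 hpf wild type and 0.852 between 8 and 24 hpf. Between genotypes it was 0.925 at 3.5 hpf and 0.966 at 24 hpf, and at 8 hpf it was 0.838, or 0.80 without plate 1. These are descriptions across genes of means that share their plates, and counting error lowers them where levels are low. Among the highest members at 3.5 hpf were rpl12, rpl23, rpl38 and rpl5b in the wild type, with rpl12, rpl23, rpl38, rpl6 and rpl24 leading the mutant. The wild-type place of rpl38 rests on plate 1, of 4 cells, at 1.75 transcripts per cell. The other wild-type plates held 0.319, 0.245, 0.515 and 0.571. In summed transcripts rpl38 gave 84 in the 3.5 hpf wild type, fewer than rpl10a at 137. The protein Rpl23 binds Mdm2, the keeper of p53, and loss of Rpl38 in mice disturbs translation of Hox mRNAs. The 24 hpf wild type was led by rplp1, rpl10a, rpl36a, rpl35a and rpl27, between 3.54 and 4.53 transcripts per cell, and the mutant by rpl10a, rplp1, rpl35a, rpl36a and rplp2l. The lowest at 24 hpf were rpl7l1 and rpl7a, at 0.248 ± 0.186 and 0.313 ± 0.141 transcripts per cell in the wild type (SD, n = 5).

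Paralogs were compared as the share of 1 copy in a pair, which is free of the level of the pair. Near-identical copies can share reads, so these shares are uncertain where the copies resemble each other at the 3′ end. Rpl5 carries 5S ribosomal RNA into the subunit together with Rpl11, and zebrafish have 2 copies. In the wild type rpl5a made up 6.37 ± 6.36% of the pair at 3.5 hpf (SD, n = 5), 29.4 ± 15.9% at 8 hpf (SD, n = 4) and 39.02 ± 11.5% at 24 hpf (SD, n = 5). In the mutant it made up 14.6 ± 2.12% (SD, n = 5), 48.9 ± 16.3% (SD, n = 3, the plate of 2 cells having neither copy) and 40.6 ± 10.7% (SD, n = 3). Plates of 3.5 and 8 hpf did not overlap in either genotype. An exact two-sided permutation test gave a raw p of 0.0159 for the wild type and of 0.0357 for mutant plates, each the smallest its group sizes allow, and the adjusted p was 0.278 in both after Benjamini-Hochberg over the 28 paralog comparisons. In summed transcripts rpl5a made up 9.35% of the wild-type pair at 3.5 hpf and 32.3% at 8 hpf. The mutant plates of 8 hpf stood at 45.5% on plate 1, 66.7% on plate 2 and 34.6% on plate 3, so plate 1 lay between the others. The partner of Rpl5 in that particle, rpl11, moved with the later step alone, from 0.282 ± 0.139 (SD, n = 4) to 1.13 ± 0.284 transcripts per cell (SD, n = 5) in the wild type (log2 difference 1.48, limma adjusted p = 0.00279).

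None of the other pairs passed either, with 0 of 28 exact permutation tests below an adjusted p of 0.05 and 4 below an unadjusted one. The smallest raw p of this test is 0.00794 for 5 against 5 plates, 0.0159 for 4 against 5 and 0.0571 for 3 against 4. A complete separation in 1 test alone could thus not pass the adjustment over 28 tests. The count of 0 therefore does not show that the shares held still. The share of rpl7 against rpl7l1 was 68 ± 11.2% in the 8 hpf wild type (SD, n = 4) and 90.2 ± 5.99% at 24 hpf (SD, n = 5), with overlap (exact permutation p = 0.0317, adjusted p = 0.278). The share of rplp2 against rplp2l lay between 14.7% and 33.1% in all 6 group means, so rplp2l was the larger copy in each. The share of rpl22 against rpl22l1, a pair linked to blood stem cell formation in zebrafish, lay between 53.7% and 80.98%. The gene rpl22l1 itself rose from 0.0428 ± 0.0432 (SD, n = 5) to 0.274 ± 0.187 transcripts per cell (SD, n = 4) between 3.5 and 8 hpf in the wild type (log2 difference 0.89, SE 0.29, limma adjusted p = 0.0175). The stages overlapped, with 8 hpf plate 2 at 0.0612 and 3.5 hpf plate 2 at 0.0972. The highest 8 hpf value, 0.5, was that of plate 3, of 6 cells. In all there were 11 transcripts in 205 cells of 3.5 hpf and 18 in 101 cells of 8 hpf.

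The tdrd6a genotype changed no member past the threshold at any stage. By limma 0 of 44 were called at 3.5, 8 and 24 hpf, as they were by limma voom on summed transcripts. Of all tested genes 0% were higher and 0.22% lower in the mutant at 3.5 hpf, 0% and 0% at 8 hpf, and 0.11% and 0% at 24 hpf. At an unadjusted p below 0.05 there were 1, 7 and 0 members, where 5.60%, 7.36% and 2.31% of all tested genes were below it. Without 8 hpf mutant plate 1 there were 4 at 8 hpf, where 9.50% of all genes were.

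Most members nevertheless had the higher mean in the mutant at the earlier stages. At 3.5 hpf 38 of 44 differences were positive with a median of 0.18, where 45.5% of all tested genes were positive with a median of -0.02. The smallest p was that of rpl34, at 0.284, 0.179, 0.174, 0.18 and 0.188 transcripts per cell in the mutant and 0, 0.167, 0.0408, 0.0758 and 0.0714 in the wild type. Its plates did not overlap, as those of 1.87% of all genes did not (log2 difference 0.59, SE 0.28, limma adjusted p = 0.818). The share of the plate differed by 1.18 percentage points at 3.5 hpf, with overlap, since mutant plate 5 lay at 3.42%.

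At 8 hpf 35 of 44 differences were positive with a median of 0.39, where 47.9% of all tested genes were positive. Without plate 1 of the mutant 24 were positive, where 34.9% of all genes were, the median was 0.03, and the share differed by 0.951 percentage points where it differed by 2.78 with it. Among the members of low p was rpl39, a small protein of the tunnel wall, with a difference of 1.2 (SE 0.33, limma adjusted p = 0.265), or 0.87 without plate 1, the 1 member that passed in 1 alternative, without mutant plate 2. At 24 hpf 26 of 44 were positive, where 49.01% of all genes were, with a median of 0.06, and the share differed by 0.535 percentage points. The lowest p there was that of rpl10, a protein added last to the subunit, at 0.469 ± 0.232 transcripts per cell in the mutant (SD, n = 3) and 0.755 ± 0.316 in the wild type (SD, n = 5), with an adjusted p of 1 by limma.

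Cells of 24 hpf were divided by whether any germnanos3 transcript was seen, a germ plasm mRNA that later marks germ cells. Over the 8 plates 164 cells held it and 188 did not. In every plate the positive cells held fewer large subunit transcripts, on average 81.9 ± 16.7 against 94.2 ± 14.2 per cell (SD, n = 8 plates), but they also held fewer transcripts in all, with median totals averaging 510 ± 65.4 against 580 ± 41.1. As shares these were 15.6 ± 1.83% and 16.02 ± 1.60%, and the positive cells were higher in 4 plates and lower in 4. Wild-type plate 4, with 9 positive cells, had the widest gap, 12.9% against 17.4%.

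**Figure D4:**
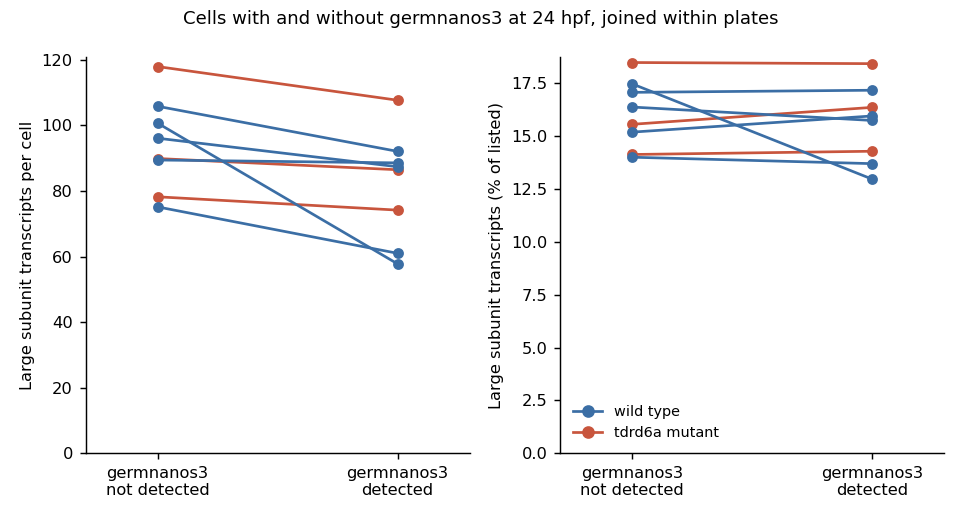
Large subunit transcripts per cell (left, y axis) and as a percentage of listed transcripts (right, y axis) in 24 hpf cells without and with germnanos3 (x axis), 1 line for each of 8 plates, blue for wild type and red for mutant. All 8 lines fall on the left, and on the right 4 rise and 4 fall.

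With the plate as a block, 4 of 44 members were lower and 0 higher in the positive cells, where 3.64% of 797 tested genes were lower and 2.26% higher. The median over members was -0.16 and over all genes -0.08. The clearest was rpl4, whose protein lines the exit tunnel. It stood at 0.667, 0.333 and 0.425 transcripts per cell in positive cells of the mutant plates against 1.23, 0.521 and 1.15 in negative cells. On the wild-type plates it stood at 1, 0.643, 0.826, 0.222 and 0.40 against 0.706, 1.83, 1.36, 1.77 and 1.38. It was lower in positive cells in 7 of 8 plates (log2 difference -0.92, SE 0.22, limma adjusted p = 0.0136), also with cells rescaled to the same total, but the call was lost without wild-type plate 5, in the mutant plates alone and without the block. The others were rpl23 (-0.69), rplp2l (-0.51) and rplp1 (-0.48), with adjusted p between 0.0326 and 0.0372, and none of them passed with cells rescaled to the same total. No member differed between genotypes in this contrast (0 of 44 by limma, 0 at an unadjusted p below 0.05), where 0% of genes were higher and 0.125% lower.

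Other genes of the translation machinery were followed from lists. Small subunit genes moved with the large subunit, with 32 of 33 higher in the wild type and 29 in mutant plates from 8 to 24 hpf, among them rps14 (log2 difference 2.11) and rps9 (2.01) in the wild type. In the mutant the small subunit count was 32 without 8 hpf plate 1. Of 23 translation factors 6 were higher and 0 lower in the wild type, a share near the 24.1% of all tested genes that were higher, among them btf3 (1.81), a part of the complex that meets new chains, and eif5a (1.54). The 8 listed nucleolar and assembly genes were dkc1, fbl, ncl, nop56, nop58, npm1a, rsl24d1 and nap1l1, the last named for nucleosome assembly. Of these 8 genes 0 were higher and 6 lower in the wild type, where 6.92% of all tested genes were lower. Among them were nop56 (-2.0), a core protein of the particles that methylate ribosomal RNA, and ncl (-1.48), the nucleolar protein nucleolin. In the mutant 2 of these 8 were lower, or 3 without 8 hpf plate 1, where 2.64% and 3.02% of all tested genes were.

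Some nucleolar genes had risen at the step before. From 3.5 to 8 hpf 3 of the 8 were higher and 1 lower in each genotype, where 11.6% and 23.1% of all genes were in the wild type and 11.8% and 20.1% in mutant plates. Without 8 hpf plate 1 the mutant count was again 3 and 1. The gene nop56 went from 0.681 to 3.07 transcripts per cell in the wild type (log2 difference 1.83, limma adjusted p = 0.000218). The level of nop56 at 24 hpf was 0.679. Its mean was thus highest at 8 hpf of the 3 stages.

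At 2 weeks the share was 17.7% on the single plate of 76 cells, above the 24 hpf wild-type range of 13.8 to 17.1%. This plate also held fewer markers of other cells, with epidermal markers at 0.5 transcripts per cell against 2.03 to 5.68 on the 24 hpf wild-type plates, muscle markers at 0.145 against 0.6 to 6.34 and neural markers at 0.0263 against 0.228 to 0.829, and their part in the positions below was not tested. Of the members 9 lay above all 24 hpf wild-type plates, 8 below them and 27 within, which is 20.5% above and 18.2% below, where 22.4% and 19.6% of all listed genes lay above and below. The highest member was rpl35a, at 5.62 transcripts per cell against 2.95 to 4.40 at 24 hpf. The greatest relative gain was that of rpl7a, at 0.974 against 0.122 to 0.514. Lower than every 24 hpf plate were rpl10a, at 2.14 against 3 to 5.91, rpl8, a protein near the catalytic centre, at 1.07 against 1.72 to 2.35, and rpl21, at 0.987 against 1.35 to 2.70. The gene rpl12 was above its 24 hpf range, at 1.47 against 0.721 to 1, but below the median member of 2 weeks at 1.86. The lowest member was again rpl7l1, at 0.158. With 1 plate there is no replicate check of these positions.

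**Figure D5:**
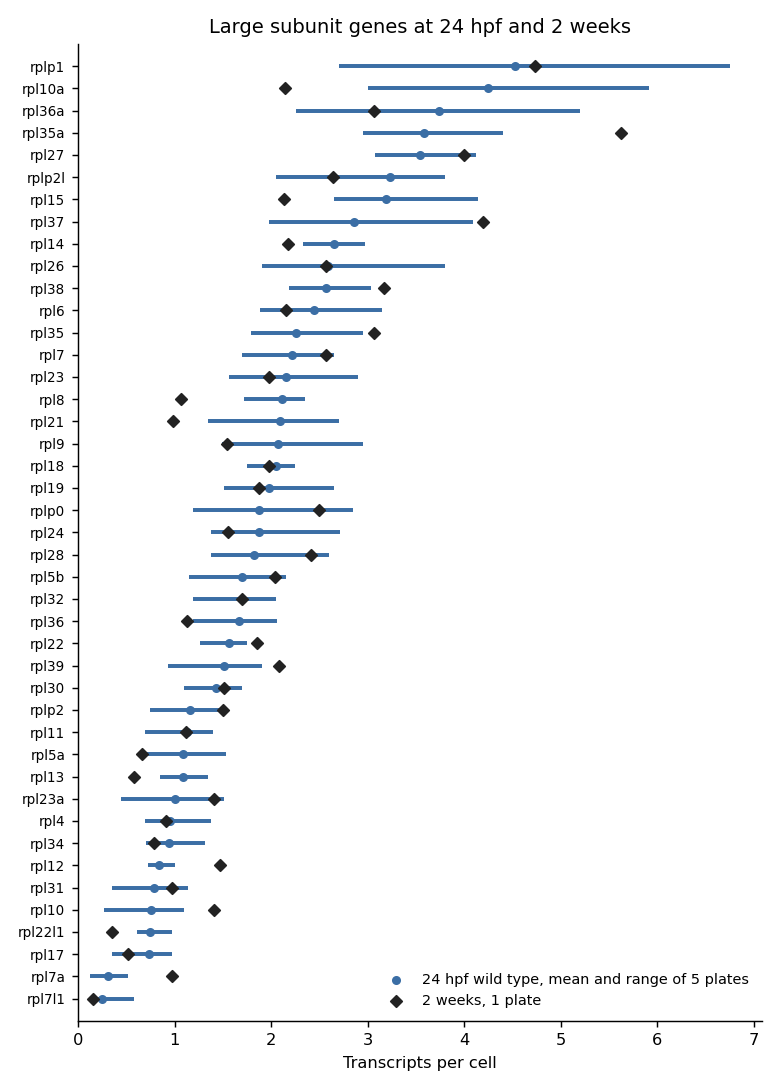
Transcripts per cell (x axis) of 43 of the 44 large subunit genes (y axis), with the mean and range over 5 wild-type plates of 24 hpf in blue and the single plate of 2 weeks as a black diamond. Diamonds outside the blue bars are 9 genes above and 8 below, among them rpl35a above and rpl10a below.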

How the data were processed

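Single cells were processed with CEL-seq, which counts 3′ ends, per the labels' protocols. The submitters' processing notes name BWA and Zv9, versions not given. The authors deposited 1 table of 1017 genes and 1203 cells from 28 libraries. The authors deposited signal values, each equal to a whole number plus 0.1 (tolerance 1e-06), and what scaling, counting and cell filter came before is not given in the sources used here. Transcripts below are the number above 0.1, and whether it counts molecules is not known. All 44 members matched a RefSeq symbol or synonym. No sequence or coordinate is printed. RPL29 and RPL37A stand in capitals in the table and are not members.

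In the comparisons 26 plates with 1034 cells entered. Left out were the plate labelled with 8 and 24 hpf (45 cells), the 48 wells of 8 hpf mutant plate 1 described as heterozygous, and from tests the 2 week plate. One cell of that plate 1 carried a number beyond the 96 barcodes and was kept; all plates share these barcodes, and no cells were identical. Genes with a mean deposited value of at least 0.2 on at least 3 plates were tested, 910 of 1017, all members among them. Limma 3.58.1 in R 4.3.3 (trend, robust) was fitted to log2 of the plate mean transcripts plus 0.2, with 6 groups and 20 residual degrees of freedom, two-sided, with Benjamini-Hochberg adjustment at 0.05. Cells with and without germnanos3 (at least 1 transcript) were fitted with the plate as a block over 797 genes and 7 residual degrees of freedom, without the germnanos3 row. Paralog shares were tested by exact permutation in scipy 1.17.1. The depth, 1027 to 32018 summed transcripts per plate and a median of 424 per cell (156 to 855), sets the precision. The code was tested on simulated data.

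Named members were those highest in a group, past a threshold with no overlap, departing from the median member, paralogs, the stalk, the lowest and some of known role; rpl21 was chosen after its values were seen. Members and lists were chosen with earlier results of these data known. Alternatives varied the added constant, the filter, scaling, weighting, voom, plates left out and cells chosen. Those added after seeing the data left out 8 hpf mutant plate 1 together with the small plates, kept only germnanos3-positive 8 hpf cells, counted RPL29 and RPL37A, and repeated the departure and paralog fits without plate 1 or with a block. The fit without 8 hpf mutant plate 1 was both an alternative of its own and 1 of the fits with a plate left out. Numbers of alternatives for comparisons with the 8 hpf mutant count it in both places. Single values of 1 member are not reported here.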

Additional observations from a re-analysis of the deposited data

Results flagged for a closer look

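Of 128 sets of 4 to 10 plates that were looked at, 10 had a highest or lowest plate far from the rest. A rate of about 1 in 20 would hold by chance for independent values of like precision. These sets share plates of unequal cell number, so that rate is only a guide. The share of large subunit transcripts on 3.5 hpf wild-type plate 1, a plate of 4 cells, was 2.80% with the nearest plate at 3.72%. Among levels in transcripts per cell, rplp1 was at 0 on 3.5 hpf wild-type plate 5 with the nearest plate at 0.194. On 8 hpf wild-type plate 1 rplp0 stood at 0.905 with the nearest at 0.347, and on plate 3, of 6 cells, rplp2 stood at 0.833 with the nearest at 0.286. On 24 hpf wild-type plate 3 rpl7l1 stood at 0.579 with the nearest at 0.20, and the share of rpl7 in its pair was 80% there with the nearest at 90.5%. At 3.5 hpf mutant plate 5 held rpl5a at 0.125 with the nearest at 0.0896, and plate 1 held rpl35a at 0.622 with the nearest at 0.312 and rpl34 at 0.284 with the nearest at 0.188. On 8 hpf mutant plate 1 rpl14 stood at 1.94 with the nearest at 0.654.

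Cells that entered no comparison also held these transcripts. The 48 wells of 8 hpf mutant plate 1 described as heterozygous had a share of 12.7%, where the highest 8 hpf wild-type plate had 6.09% and the mutant wells of the same plate 12.6%. The first wells of the plate labelled with 8 and 24 hpf, with 5 cells, had a share of 6.21%, just above the same 6.09%. Neither was tested.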

How the results depend on the processing

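Medians moved with the constant added to transcripts. With 0.01 the median was 0.43 for the genotype at 3.5 hpf (0.36 by voom), 0.77 for the wild type from 3.5 to 8 hpf and 2.14 from 8 to 24 hpf; with 1 the last 2 were 0.16 and 0.98. From 3.5 to 8 hpf the wild-type count of higher members was 4 with 1 added and 5 with only germnanos3-positive 8 hpf cells, and lower members numbered 2 by voom and 0 with those cells. In the mutant it was 5 with cells rescaled (3 lower), 33 with plates weighted by cells, 29 without small plates, 4 without 8 hpf plate 1 (2 lower) and 5 with only the 2 groups fitted. From 8 to 24 hpf it was 27 in the wild type with 0.01 added, and in the mutant 9 with 0.01 added, 23 rescaled, 22 by voom and 1 with only the 2 groups fitted. Between cells with and without germnanos3 1 member was lower with cells rescaled, 1 with 0.01 added, 1 with no filter and 0 in mutant plates only.

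Departures depended on the reference. Against the median of all tested genes they were 18 higher and 1 lower, then 43 and 0, in the wild type, and 26 and 1, then 26 and 0, in the mutant; rpl17 (0.84), rpl31 (0.89) and rpl30 (0.93) in the wild type, with mutant rpl7l1 (0.0912) and rpl32 (0.48), then turned positive from 8 to 24 hpf. With 0.01 added there were 7 higher in the wild type at the early step and 0 higher and 1 lower at the late step, and in the mutant 1 and 1, then 0 and 0. With 1 added there were 1 and 1, then 4 and 9, in the wild type, and 1 lower, then 3 higher and 10 lower, in the mutant. Without small plates 4 were lower in the wild type and 5 in mutant plates at the early step, and 1 in the mutant at the late step. Without 8 hpf mutant plate 1 the mutant had 7 higher and 1 lower, then 10 lower.

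Leaving out 1 plate at a time gave these ranges. Higher members in the mutant at 8 hpf numbered 0 to 1. From 3.5 to 8 hpf 4 to 11 were higher and 0 to 1 lower in the wild type, and 4 to 26 and 1 to 2 in the mutant. From 8 to 24 hpf 11 to 41 were higher in the mutant, and between cells with and without germnanos3 0 to 4 were lower. Departures ran from 1 to 3 higher and 1 to 2 lower, then 0 to 3 and 2 to 5, in the wild type, and 1 to 7 and 1 to 4, then 0 to 1 and 1 to 10, in the mutant. The median was between 0.03 and 0.68 for the genotype at 8 hpf. The share difference between genotypes ran from 0.951 to 3.78 points at 8 hpf and from -0.578 to 1.58 at 24 hpf.

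Deviations of same-numbered wild-type and mutant plates correlated between -0.41 and 0.32. Plates of different number were not compared, so whether plate numbers pair the plates was not settled. With the replicate block 8 members were higher and 1 lower, then 43 higher, in the wild type, and 10 and 1, then 33, in the mutant, with 0 for the genotype. Departures under the block were 1 higher in the wild type at the late step and 1 lower at each step in the mutant, and 0 members were lower between these cells with no replicate block. The causes of these changes were not tested. Among values of counts, shares and medians under the other settings 356 stayed close to those reported and 58 moved. Levels under 1 transcript per cell and plates of 2 to 6 cells limit single members at the early stages most.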
